A study of Mus musculus with 2 samples.

Results

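Genes known from fetal tissue and tumors were followed across the cells of RM-1 tumors: Rhox5, Hmga2, Hmga1, Lin28b, Igf2bp1, Igf2bp2, Igf2bp3, H19, Igf2 and Ghr, the growth hormone receptor gene. They were taken by name, 10 of the 32285 genes counted, and all 10 were found. RM-1 is a mouse prostate cancer line made with oncogenes in urogenital sinus, the fetal tissue from which the prostate forms. The line, labelled wild type (WT), was grown orthotopically, in the prostate of C57BL/6 mice. One tumor came from a mouse given vehicle (control) and 1 from a mouse given enzalutamide (ENZ), a drug used against prostate cancer, and each gave 1 single-cell RNA-seq library. Immune cells were enriched during sorting, so the numbers of cells in each class were not compared. The control library held 170830346 unique molecular identifiers (UMIs, each marking 1 captured RNA molecule) and the ENZ library 162030149. With 1 library per condition no difference between ENZ and control has a replicate check, no p-value is given, and every interval below is a 95% interval for counting error only.

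Oncofetal genes are active in the embryo, are low or silent in most adult tissue, and are switched on again in many tumors. LIN28B blocks the maturation of let-7 microRNAs, and let-7 represses HMGA2, the IGF2BP genes and LIN28B itself through sites in their 3′ untranslated regions. HMGA1 and HMGA2 are chromatin proteins that bind AT-rich DNA, and the IGF2BP proteins bind and stabilise mRNAs. H19, a noncoding RNA, and Igf2, a fetal growth factor, are neighbouring imprinted genes. Rhox5 is an X-linked homeobox gene of the reproductive tract and placenta that is also found in tumor cell lines.

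The let-7 sites of these genes are shown because they are a sequence feature that was not used to choose them. All 9 mature let-7 and miR-98 sequences found in the RefSeq table (GRCm38.p6) share 1 seed, bases 2 to 8, given in capitals in 2 of them.
mmu-let-7a-5p: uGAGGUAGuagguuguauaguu
mmu-miR-98-5p: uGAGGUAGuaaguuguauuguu
The complement of that seed, CTACCTC, was searched on the transcript strand of the longest annotated 3′ untranslated region of each gene (GENCODE M21, GRCm38). Hmga2 held 4 matches in 3014 bases, Lin28b 4 in 4445 bases and Igf2bp1 4 in 6337 bases. At least 4 matches were found in 0.0575% of the 20870 coding genes with such a region, and at least 1 in 9.07%. Among the 2773 genes whose region is at least as long as that of Hmga2, 0.288% held as many. The same share was 0.549% for Lin28b and 0.8% for Igf2bp1. Hmga1, Igf2bp2 and Igf2bp3 held 1 match each, and Rhox5, Igf2 and Ghr held 0, as did the whole H19 transcript. At least 1 match was found in 16.1%, 19% and 20.5% of genes with regions as long as those of Hmga1, Igf2bp2 and Igf2bp3 or longer. Several of these genes are textbook let-7 targets, so the matches are a description of known targets. The matches of Hmga2 follow from 5′ to 3′ along its untranslated region, with the seed match in capitals.
Hmga2, chr10:120364224-120364245, minus strand: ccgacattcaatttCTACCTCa
Hmga2, chr10:120362987-120363008, minus strand: cccactcctcaataCTACCTCt
Hmga2, chr10:120362549-120362570, minus strand: tgatttgcaaggaaCTACCTCc
Hmga2, chr10:120361691-120361712, minus strand: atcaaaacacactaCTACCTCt
The match nearest the stop codon in Lin28b and the corresponding match in Igf2bp1 are followed, like that of Hmga2, by an A, the base most often found opposite position 1 of a microRNA in strong sites.
Lin28b, chr10:45381022-45381043, minus strand: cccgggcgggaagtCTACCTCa
Igf2bp1, chr11:95961778-95961799, minus strand: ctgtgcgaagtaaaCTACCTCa

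Cancer cells were barcodes with at least 8000 UMIs, at most 20% mitochondrial UMIs, at most 1 UMI of Ptprc (the pan-leukocyte CD45), under 10 UMIs of the fibroblast genes Dcn, Lum and Dpt, and at least 3 UMIs of the keratins Krt8 and Krt18. There were 2941 in the control library, with a median of 24982 UMIs, and 3620 in the ENZ library, with a median of 24792 UMIs. Immune cells (Ptprc of at least 2, at least 1000 UMIs) numbered 4657 and 3402, with medians of 4972 and 4979 UMIs. Fibroblasts (at least 10 UMIs of Dcn, Lum and Dpt) numbered 83 and 92, so their values are the least precise. The libraries shared 5 barcodes among cancer cells, 4 among immune cells and 0 among fibroblasts, and 17 control and 4 ENZ barcodes that passed the gates of both immune cells and fibroblasts were left out.

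The cancer gate was epithelial by its keratins only. Of 9 epithelial markers, Krt8, Krt18 and Krt19 reached 10 CPM (UMIs of a gene scaled to 1000000 UMIs of its class), while Epcam was at 3.53 and 3.13 CPM in the control and ENZ libraries and Cldn3 was at 0 in both. Of 8 markers of prostate and seminal vesicle epithelium, 6 were at 0 among control and 5 among ENZ cancer cells, Pbsn among them, and the sum of the list was 0.465 and 0.195 CPM. The markers of differentiated prostate epithelium were thus at or near 0, and the class is called cancer cells by its gate.

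Barcodes of the other classes also held keratin. At least 3 keratin UMIs were found in 373 control immune cells (8.01%) and 198 ENZ immune cells (5.82%). These barcodes had medians of 33633 and 29430 UMIs and held 36.7% and 26.5% of all UMIs of the class. Among fibroblasts, 34.9% and 29.3% of barcodes had at least 3 keratin UMIs, with 55.2% and 44.8% of the UMIs. In the immune barcodes with keratin, Rhox5 was at 992 and 858 CPM, close to its level in cancer cells below. Members of at least 10 CPM are therefore given against all immune cells and again against those with under 3 keratin UMIs, and the counts over the list below are given both ways for immune cells and fibroblasts. Keratin is part of the cancer gate, but none of the 10 genes is.

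**Figure D1:**
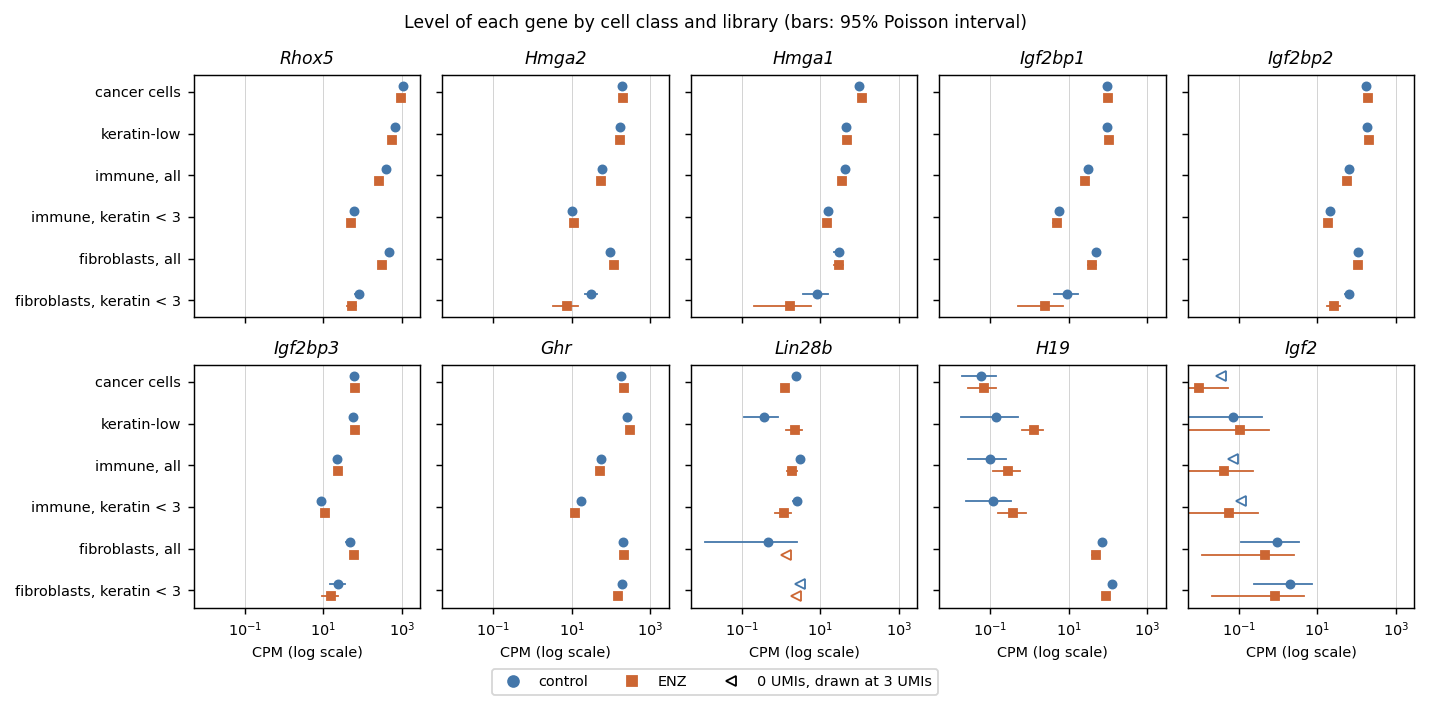
Level of each of the 10 genes (CPM, log axis) in cancer cells, keratin-low barcodes, immune cells and fibroblasts, the last 2 classes with all barcodes and with those under 3 keratin UMIs. Circles are the control and squares the ENZ library, bars are 95% Poisson intervals cut at the left edge of the axis, and open triangles mark 0 UMIs, drawn at the level of 3 UMIs. Endothelial barcodes are not drawn. Among the classes drawn, Rhox5, Hmga2 and Igf2bp1 are highest in cancer cells or level with keratin-low barcodes and drop in immune cells with under 3 keratin UMIs. H19 is above 10 CPM in fibroblasts and in no other class drawn, and Igf2 is near 0 in all classes.

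Rhox5 (chrX:37804842-37808876, plus strand, GRCm38) was at 1097 CPM (1090 to 1104) in control cancer cells and 943 CPM (937 to 949) in ENZ cancer cells. It was the most widely detected of the 10 genes, with a UMI in 99.6% of control and 99.5% of ENZ cancer cells after each cell was thinned to 8000 UMIs (99.8% and 99.9% unthinned). The median cancer cell held 8 (control) or 7 (ENZ) Rhox5 UMIs at that depth, and the middle 80% of control cells held between 4 and 14. In all immune cells it was at 403 and 266 CPM, and in those with under 3 keratin UMIs at 60.7 and 51.6 CPM. Fibroblasts gave 477 and 317 CPM, or 80.1 and 53.4 CPM with under 3 keratin UMIs. Cancer cells were thus 2.72 times (2.68 to 2.77) and 3.55 times (3.46 to 3.64) higher than all immune cells, and 18.1 times (17.2 to 18.99) and 18.3 times (17.1 to 19.5) higher than immune cells low in keratin. Over all barcodes the order among these classes was cancer cells, keratin-low barcodes, fibroblasts and immune cells in both libraries, with no overlap of intervals between neighbours. Endothelial barcodes (127 and 94, at least 3 UMIs of Pecam1, Cdh5 and Kdr) had under 3 keratin UMIs by their gate. Of them, 71 and 45 are also keratin-low barcodes. They had 398 and 437 CPM of Rhox5, 135 and 137 of Hmga2, 54.0 and 80.4 of Igf2bp1, and 99.3 and 128 of Igf2bp2. A low keratin count thus did not always go with a Rhox5 level as low as in immune cells.

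Thinned to 1000 UMIs, which kept every barcode, 64.1% of control cancer cells and 57.5% of ENZ cancer cells had a Rhox5 UMI, against 9.13% and 7.50% of immune cells. T cells, selected by genes of the CD3 complex and not known for Rhox5, had a UMI in 8.37% (5.87 to 11.5) and 6.61% (4.69 to 8.99) of barcodes at the same depth. The intervals of T cells and of immune cells as a whole (8.31 to 9.99% and 6.63 to 8.43%) overlapped in both libraries. The T cells are themselves counted among the immune cells, so this overlap is no test of where the UMIs came from. The share in immune cells is not read as expression. None of the other 33 genes of the Rhox cluster in the files reached 10 CPM in the cancer cells of both libraries.

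The HMGA genes were both higher in cancer cells. Hmga2 (chr10:120361275-120476469, minus strand) was at 190 CPM (187 to 193) in control and 200.3 CPM (197 to 203) in ENZ cancer cells. It was at 58.9 and 56.4 CPM in all immune cells, and cancer cells were 3.22 times (3.09 to 3.36) and 3.55 times (3.36 to 3.75) higher. In immune cells with under 3 keratin UMIs it was at 10.00 and 11.1 CPM, and cancer cells were 18.99 times (16.8 to 21.5) and 18.1 times (15.7 to 20.9) higher. Against all fibroblasts the ratios were 2.05 (1.78 to 2.37) and 1.71 (1.51 to 1.94), and against those with under 3 keratin UMIs 5.96 (4.20 to 8.78) and 27.1 (14.3 to 59.2). The ENZ ratio rested on 9 Hmga2 UMIs in 65 fibroblasts. Hmga1 (chr17:27556497-27563674, plus strand) was at 95.3 and 113 CPM in cancer cells and at 42.9 and 36.5 CPM in all immune cells, ratios of 2.22 (2.11 to 2.34) and 3.10 (2.90 to 3.32). Immune cells with under 3 keratin UMIs had 15.9 and 15.2 CPM of Hmga1, and the ratios to them were 6.01 (5.44 to 6.65) and 7.42 (6.59 to 8.40). Hmga1b, a near-copy of Hmga1 on chromosome 11 that can take some of its reads, was at 9.18 and 8.19 CPM in cancer cells. Hmga2, Hmga1, Igf2bp1 and Igf2bp3 also overlap genes on the opposite strand, and whether the counting used strand is not given in the sources used here.

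All 3 Igf2bp genes, which encode the RNA-binding proteins downstream of let-7, were detected in cancer cells of both libraries. Igf2bp1 (chr11:95957163-96005940, minus strand) was at 92.0 and 99.2 CPM, against 31.2 and 25.8 CPM in all immune cells, ratios of 2.95 (2.78 to 3.13) and 3.84 (3.54 to 4.17). In immune cells with under 3 keratin UMIs it was at 5.48 and 4.93 CPM, and the ratios were 16.8 (14.2 to 19.9) and 20.1 (16.3 to 25.1). Igf2bp2 (chr16:22059009-22163299, minus strand), the family member with the widest adult expression, was at 175 and 191 CPM, against 64.8 and 56.7 CPM in all immune cells and 20.9 and 19.3 CPM in those with under 3 keratin UMIs. Its ratios were 2.70 (2.59 to 2.82) and 3.37 (3.19 to 3.56) over all immune cells, and 8.39 (7.70 to 9.15) and 9.91 (8.91 to 11.05) over those low in keratin. Igf2bp3 (chr6:49085223-49214957, minus strand) was at 59.5 and 63.7 CPM, against 22.2 and 24.3 CPM in all immune cells, ratios of 2.68 (2.49 to 2.87) and 2.62 (2.41 to 2.86). With under 3 keratin UMIs immune cells had 8.62 and 11.1 CPM of Igf2bp3, ratios of 6.90 (6.04 to 7.92) and 5.72 (4.97 to 6.62). For all 3 genes the ratio to immune cells was thus smaller with the keratin-bearing barcodes included than without them. In all fibroblasts, Igf2bp3 was at 47.4 and 60.8 CPM, and its ENZ interval for cancer cells over fibroblasts spanned 1 (1.05, 0.883 to 1.25). Against fibroblasts with under 3 keratin UMIs, 23.6 and 15.6 CPM on 23 and 19 UMIs, its ratios were 2.52 (1.68 to 3.98) and 4.08 (2.61 to 6.78). After thinning to 8000 UMIs, Igf2bp1 was found in 52.3% and 53.5%, Igf2bp2 in 73.6% and 75.2%, and Igf2bp3 in 35.2% and 37.1% of cancer cells. Unthinned, the shares were larger, at 84.3% and 87.0%, 94.7% and 96.8%, and 66.1% and 67.2%, so they depend on depth.

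Lin28b (chr10:45376620-45486395, minus strand), the let-7 antagonist, was by contrast counted at a low level, and its ratio of cancer cells to all immune cells lay below 1 in both libraries, at 0.790 (0.629 to 0.995) and 0.676 (0.482 to 0.964). It had 204 UMIs in 58 of 2941 control cancer cells and 133 UMIs in 59 of 3620 ENZ cancer cells, or 2.37 and 1.29 CPM. The UMIs were concentrated: 10 cells held 53.4% (control) and 49.6% (ENZ) of them, and the highest cell held 20 and 9. In all immune cells Lin28b was at 3.01 and 1.91 CPM, in 42 and 21 barcodes, and up to 22 UMIs lay in 1 barcode. Without the immune barcodes that carried keratin, the ratio of cancer to immune cells was 0.925 (0.699 to 1.24) in the control and 1.11 (0.698 to 1.86) in the ENZ library, both spanning 1. Over all alternatives tried the ratio ran from 0.636 to 1.51 in the control and from 0.466 to 1.11 in the ENZ library, so no direction is given. Lin28a, its paralog, was at 0.0116 and 0.00973 CPM in cancer cells.

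H19 (chr7:142575529-142578143, minus strand) was counted mainly in fibroblasts. H19 had 5 UMIs in control and 7 in ENZ cancer cells, 1 per cell, or 0.0582 CPM (0.0189 to 0.136) and 0.0681 CPM (0.0274 to 0.140). Fibroblasts held 154 and 108 UMIs, or 70.9 CPM (60.2 to 83.1) and 49.0 CPM (40.2 to 59.2). The fibroblast level was 1219 times that of cancer cells in the control library and 720 times in ENZ, on these 5 and 7 cancer-cell UMIs. Over all alternatives tried, the ratio of cancer cells to fibroblasts ran from 0.000443 to 0.00107 in the control library. In the ENZ library it ran from 0.000759 to 0.00162. Most fibroblasts had no H19 UMI: 15 of 83 control and 18 of 92 ENZ barcodes had any, and 10 barcodes held 94.8% and 92.6% of the UMIs. The highest barcode held 39 and 37. With under 3 keratin UMIs, fibroblasts gave 127 and 88.8 CPM, so the values were larger without the keratin-bearing barcodes.

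Igf2 (chr7:142650766-142666816, minus strand) had at most 2 UMIs in each of the 3 classes. Cancer cells had 0 UMIs in the control library, which allows up to 0.0349 CPM and up to 0.102% of cells with a captured UMI (a limit on captured UMIs, not on cells that express the gene), and 1 UMI in the ENZ library. Fibroblasts had 2 and 1 UMIs and immune cells 0 and 1. The IGF2BP genes were thus counted in cells in which the RNA they are named for was at or under the limit that a count of 0 allows.

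Ghr (chr15:3317760-3583492, minus strand), the receptor for growth hormone, signals through JAK2 and STAT5 and is known best from liver. It was at 180 CPM (177 to 183) in control and 212 CPM (209 to 214) in ENZ cancer cells. In all immune cells it was at 55.7 and 53.0 CPM, and cancer cells were 3.23 times (3.09 to 3.37) and 3.99 times (3.77 to 4.22) higher. In immune cells with under 3 keratin UMIs it was at 17.1 and 12.2 CPM, and cancer cells were 10.5 times (9.56 to 11.6) and 17.4 times (15.2 to 19.9) higher. Unlike Rhox5 and Hmga2, it was about as high in fibroblasts as in cancer cells, at 206 and 212 CPM (ratios of cancer cells to fibroblasts 0.872, 0.793 to 0.960, and 0.998, 0.911 to 1.10). With under 3 keratin UMIs, fibroblasts had 191 and 149 CPM, and the ratio of cancer cells to them was 0.941 (0.815 to 1.09) in the control and 1.42 (1.23 to 1.66) in the ENZ library. Endothelial barcodes had 177 and 174 CPM of Ghr, so fibroblasts were not the only other class with a level near that of cancer cells. A Ghr UMI was found in 63.7% of control and 69.4% of ENZ cancer cells thinned to 8000 UMIs.

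Counted over the list, 7 genes passed the filter of 10 CPM in 1 class or the other, and 0 of these 7 were 4 times higher in cancer cells than in all immune cells in both libraries, where 0.0213% of the 9394 genes tested were. At least 4 times lower were 0 of the 7 and 9.42% of all. With under 3 keratin UMIs in the immune cells, all 7 were (Rhox5, Hmga2, Hmga1, Igf2bp1, Igf2bp2, Igf2bp3 and Ghr), against 8.96% of 9585 genes (the count was also 7 without the 5% of barcodes with the most UMIs, and when CPM was averaged over cells), and 0 were 4 times lower, against 11.8%. In these immune cells Igf2bp1 was under 10 CPM in both libraries, and Igf2bp3 and, only just, Hmga2 in the control, so there they passed the filter through cancer cells alone, where they are high, and the count is a description. Against all fibroblasts 0 of 8 genes were 4 times higher, where 0.0433% of 9230 genes were, and with under 3 keratin UMIs 4 were (Rhox5, Hmga2, Hmga1 and Igf2bp1), against 2.92% of 9442 genes. In these fibroblasts Hmga1 had 8 and 2 UMIs and Igf2bp1 9 and 3. Both were under 10 CPM there in both libraries, as was Hmga2 in ENZ, and so passed the filter through cancer cells alone, which favours a count as higher. The member 4 times lower in cancer cells than in fibroblasts was H19, as were 6.47% of genes, or 9.09% with under 3 keratin UMIs. At under 1 CPM in cancer cells, H19 passed the filter through fibroblasts alone, so its place in this count was fixed by the filter. The filter left out Lin28b and Igf2 in every comparison.

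Genes of at least 100 CPM in the cancer cells of both libraries, 1579 in all, were ranked by the lowest of their 4 log2 ratios (cancer cells to immune cells and to fibroblasts in each library). Over all barcodes Krt18, Krt19 and Krt8 led, followed by the secretory granule gene Ptprn, the serine synthesis enzyme Phgdh, and Rhox5 at rank 6 with a lowest log2 ratio of 1.20. Cks1b, a cell cycle gene, the integrin gene Itga6, the phosphatase gene Dusp2 and the transcription factor gene Etv4 completed the first 10. Krt8 and Krt18 are part of the cancer gate. With under 3 keratin UMIs in the other classes, Rhox5 was at rank 4 with a lowest log2 ratio of 3.77 and Hmga2 at rank 9 with 2.58 (rank 52 with 0.774 over all barcodes), and Tinagl1 and Ube2c were among the first 10. Igf2bp2 was at rank 106 over all barcodes and 73 with under 3 keratin UMIs, and Ghr at 1095 and 1013, its lowest ratio being that to control fibroblasts.

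**Figure D2:**
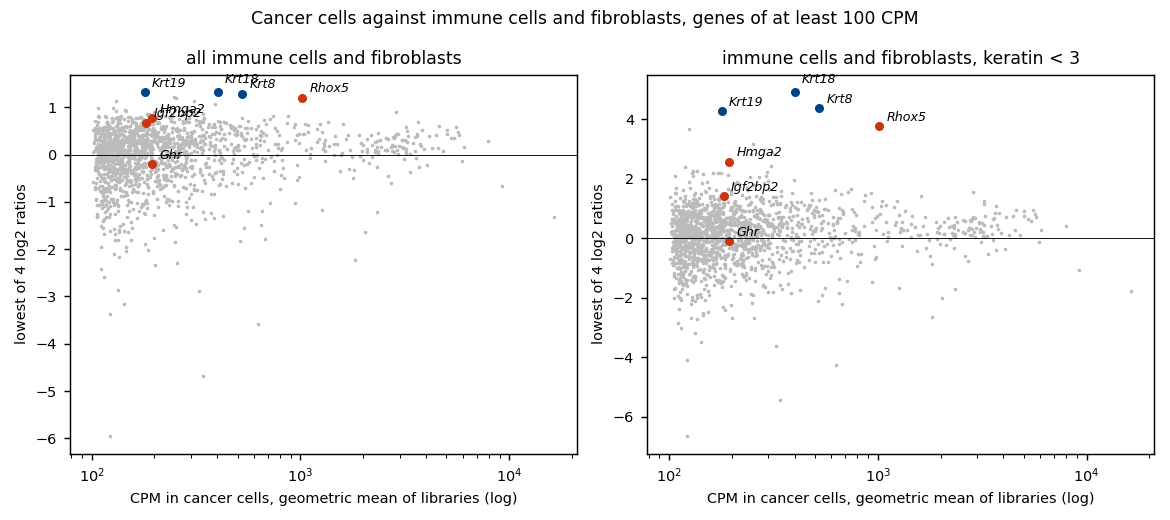
Lowest of the 4 log2 ratios of cancer cells to immune cells and to fibroblasts in both libraries (vertical) against the CPM in cancer cells (horizontal, log axis) for the 1579 genes of at least 100 CPM, with all barcodes of the other classes at left and those under 3 keratin UMIs at right. Grey points are genes, blue ones keratins and red ones members. Rhox5 lies next to the keratins, at 1.20 at left and 3.77 at right, and Ghr lies just below 0 in both.

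Free RNA from lysed cells was read from barcodes of 10 to 100 UMIs, in which Rhox5 was at 556 and 565 CPM. Each member was also set against keratin, per 100 UMIs of Krt8 and Krt18. The cancer gate asks for at least 3 keratin UMIs and the gates of immune cells and fibroblasts do not, which lowers the values of cancer cells. In keratin-low barcodes, gated the opposite way, Rhox5 had 1131 and 853 UMIs per 100 keratin UMIs. Differences from cancer cells on this measure are therefore a description. Rhox5 had 120 UMIs per 100 keratin UMIs in control and 99.7 in ENZ cancer cells, 110 (107 to 112) and 103 (99.6 to 107) in immune cells, and 111 (97.4 to 126) and 99.3 in the barcodes of free RNA. Hmga1 had 10.5 and 11.96 in cancer cells and 11.7 and 14.2 in immune cells. For Hmga2 the values were 20.9 and 21.2 in cancer cells against 16.02 and 21.9 in immune cells. In immune cells Igf2bp3 had 6.04 (5.65 to 6.46) and 9.43 (8.66 to 10.3), against 6.54 and 6.74 in cancer cells, and Ghr had 15.1 (14.5 to 15.8) and 20.6 (19.4 to 21.8), against 19.8 and 22.4. Lin28b had 0.817 (0.679 to 0.975) and 0.742 (0.545 to 0.988) in immune cells, against 0.261 and 0.137 in cancer cells. Immune cells thus lay above cancer cells for some members and below them for others. The barcodes of free RNA lay below cancer cells for Hmga2, at 13.3 (10.1 to 17.4) and 16.01 (13.02 to 19.5). They also did for Ghr, at 13.7 (10.4 to 17.8) and 16.2 (13.1 to 19.7). For Hmga1, Igf2bp1, Igf2bp2 and Igf2bp3 the intervals of free RNA held the values of cancer cells. Fibroblasts lay above cancer cells in both libraries for 6 of the 7 members of at least 10 CPM in cancer cells. Per 100 keratin UMIs, Rhox5 had 166 (150.0 to 183) and 116 (104 to 129.5) there, Hmga2 32.2 and 42.9, Igf2bp2 38.3 and 41.2, Ghr 71.8 and 77.6 and Igf2bp3 16.5 and 22.3. Igf2bp1 had 17.5 and 14.5 in fibroblasts, against 10.1 and 10.5 in cancer cells, and Igf2bp2 had 19.2 and 20.2 in cancer cells. The other member, Hmga1, had 10.3 (7.80 to 13.3) and 10.8 (8.23 to 13.96), with intervals that held the values of cancer cells. The part of free RNA and of barcodes with 2 cells in these values was not tested separately.

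**Figure D3:**
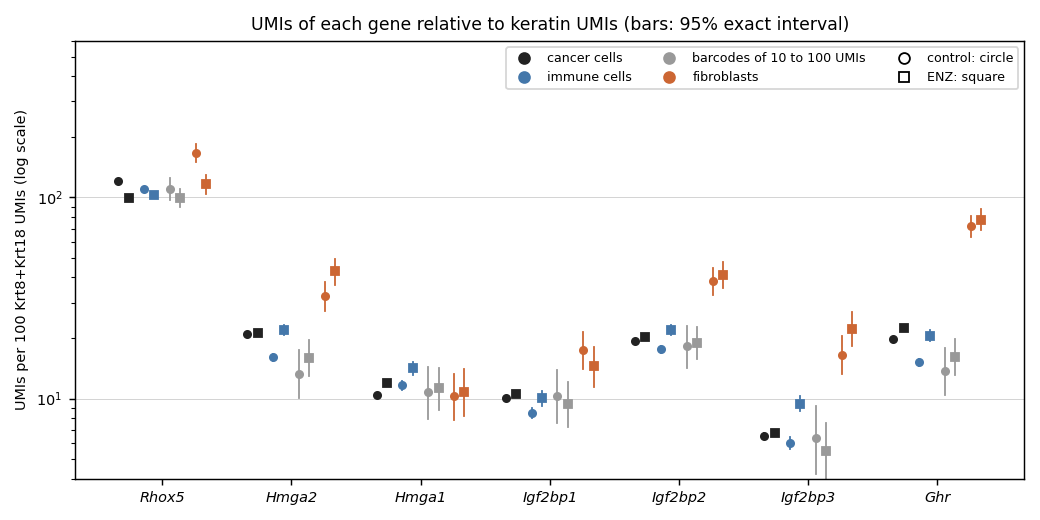
UMIs of 7 members per 100 UMIs of Krt8 and Krt18 (log axis) in cancer cells (black), immune cells (blue), barcodes of 10 to 100 UMIs (grey) and fibroblasts (orange), with circles for the control and squares for the ENZ library and bars for 95% exact intervals. Immune cells and the barcodes of free RNA lie near the cancer cells for Rhox5 (99.3 to 120). For Hmga2 and Ghr the barcodes of free RNA lie below the cancer cells. Fibroblasts lie above the cancer cells in both libraries for every member drawn except Hmga1, Ghr (71.8 and 77.6) included. Of the classes drawn, only the cancer cells were gated on keratin, which lowers their values.

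Between the libraries, none of the 7 members with at least 10 CPM in cancer cells was 1.5 times higher or lower in ENZ, where 0.483% of the 8695 genes tested were higher and 0.920% lower. The interval of the ratio lay above 1 for 6 of the 7, as for 46.8% of all genes, and below 1 for Rhox5, as for 30.4%. Rhox5, with 1097 and 943 CPM, had a ratio of 0.860 (0.852 to 0.868). Hmga1 had the highest ratio of the 7, 1.19 (1.15 to 1.22), and Ghr had 1.18 (1.15 to 1.20). The ratios of Hmga2, Igf2bp1, Igf2bp2 and Igf2bp3 lay between 1.05 and 1.09. The median log2 ratio of the 7 genes was 0.11 and that of all genes tested 0.055. Lin28b had a ratio of 0.545 (0.435 to 0.681) on 204 and 133 UMIs, and H19 of 1.17 (0.320 to 4.68). As 10 cells held 53.4% and 49.6% of the Lin28b UMIs, the counting interval is too narrow for Lin28b. A Lin28b UMI was found in 0.952% (0.634 to 1.37) of control and 0.801% (0.537 to 1.15) of ENZ cancer cells thinned to 8000 UMIs. These intervals overlap, and no direction is given.

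**Figure D4:**
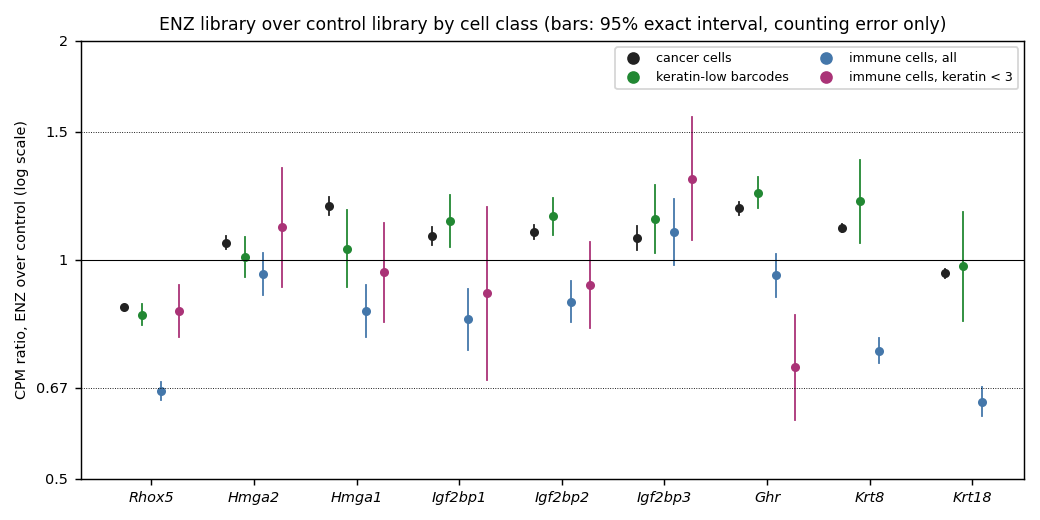
Ratio of CPM in the ENZ library to that in the control library (log axis) for 7 members and the keratins Krt8 and Krt18, in cancer cells (black), keratin-low barcodes (green), all immune cells (blue) and immune cells with under 3 keratin UMIs (purple, not drawn for the keratins that define them). Bars are 95% exact intervals for counting error, and dotted lines mark 1.5 times higher and lower. In cancer cells the ratios lie between 0.860 (Rhox5) and 1.19 (Hmga1).

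Within cancer cells, Ghr and Hmga1 varied in opposite directions with cell division. In cells thinned to 8000 UMIs, 1105 control and 1219 ENZ cells had at least 2 UMIs of the mitotic genes Mki67 and Top2a, and 1356 and 1799 had 0. The 480 control and 602 ENZ cells with 1 such UMI were left out. Ghr was at 146 CPM in control cells with at least 2 (called dividing here) and 238 CPM in those with 0, and at 175 and 276 CPM in the ENZ library, ratios of 0.615 (0.575 to 0.658) and 0.634 (0.599 to 0.671). Hmga1 was at 99.2 against 79.4 CPM and at 121 against 93.3 CPM, ratios of 1.25 (1.14 to 1.38) and 1.30 (1.20 to 1.41). Igf2bp2 had ratios of 0.846 and 0.840, Rhox5 of 1.06 and 1.17, and Igf2bp1 of 1.01 in both libraries with intervals spanning 1. Dividing cells also had more UMIs before thinning, with medians of 31999 against 20825 UMIs for control and 32460 against 21109 UMIs for ENZ. The part of depth in these ratios was not tested.

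Hmga1 and Ghr also went opposite ways when cells were ordered by keratin or by total UMIs and set in 3 equal groups. From the lowest to the highest keratin group, Hmga1 went from 70.8 to 106 CPM (control) and from 89.0 to 119 CPM (ENZ), ratios of 1.503 (1.35 to 1.68) and 1.34 (1.22 to 1.46). Ghr went from 235 to 167 CPM and from 265 to 201 CPM, ratios of 0.712 (0.663 to 0.765) and 0.756 (0.712 to 0.802). Rhox5 was higher with keratin (1.23 and 1.25), and Hmga2, Igf2bp1, Igf2bp2 and Igf2bp3 were lower, with ratios from 0.757 to 0.900. By total UMIs the highest over the lowest group gave 1.49 and 1.62 for Hmga1 and 0.664 and 0.697 for Ghr. Lin28b, on 3 to 25 UMIs in each of these groups, had ratios of 3.33 (1.29 to 10.1) and 6.66 (1.98 to 35.0) by total UMIs, and 4.99 (1.88 to 16.7) in the control and 0.624 (0.253 to 1.46) in the ENZ library by keratin.

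**Figure D5:**
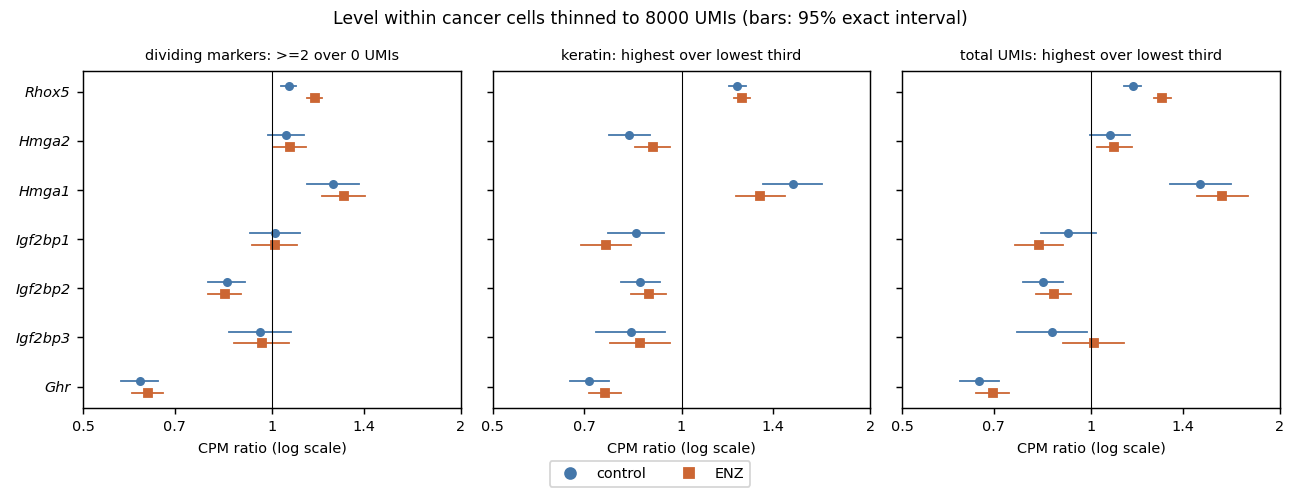
Ratio of CPM (log axis) within cancer cells thinned to 8000 UMIs, for cells with at least 2 over those with 0 UMIs of Mki67 and Top2a (left), the highest over the lowest of 3 groups by keratin UMIs (middle) and by total UMIs (right), with circles for the control, squares for the ENZ library and bars for 95% exact intervals. Hmga1 lies above 1 and Ghr below 1 in all 3 panels and both libraries (dividing cells: 1.25 and 1.30 for Hmga1, 0.615 and 0.634 for Ghr).

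Likeness between genes was read across single cancer cells. Over 2941 control and 3620 ENZ cells thinned to 8000 UMIs, Pearson's r of ln(1 + UMIs) between any 2 of the 7 genes lay between -0.193 and 0.122, the lowest for Rhox5 and Ghr (-0.193 and -0.181), and in sparse counts such values are no finding, in either direction. Among 3271 genes of at least 50 CPM, those most like Rhox5 were Ppia, the cyclophilin A gene (r of 0.445 and 0.418), Lgals1, which encodes galectin-1 (0.436 and 0.400), and S100a6, a calcium-binding protein gene (0.392 and 0.376). Those most like Ghr were the nuclear noncoding RNA Malat1 (0.329 and 0.295), the heparan sulfate enzyme gene Ext1 (0.298 and 0.288) and the adhesion receptor gene Adgrl3 (0.337 and 0.278). Hmga1 was nearest to Eif5a (0.185 and 0.183), a translation factor gene, Ran and Nme2, and Hmga2 to Tcf20, Oxr1 and Rbms1, all with r under 0.19. Igf2bp1 was nearest to Nf1, Ext1 and Maml2, Igf2bp2 to Setbp1, Malat1 and Ank3, and Igf2bp3 to Setbp1, Col1a1 and Mbd5, with r at or under 0.212. The points share 1 library each and the values are given as a description.

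A further 955 control and 654 ENZ barcodes passed every limit of the cancer gate except that they had under 3 keratin UMIs. They also had fewer UMIs, with medians of 12961 and 13047, against 24982 and 24792 in cancer cells. Ghr was at 250 and 309 CPM in these keratin-low barcodes, 1.39 times (1.34 to 1.44) and 1.46 times (1.41 to 1.52) its level in cancer cells. Hmga1 was lower, at 46.2 and 47.8 CPM, with ratios of 0.484 (0.446 to 0.525) and 0.423 (0.384 to 0.464). Rhox5 was at 691 and 580 CPM, ratios of 0.630 and 0.615, and was found in 85.1% and 91.4% of unthinned barcodes. Thinned to 1000 UMIs, 43.7% and 40.4% of keratin-low barcodes had a Rhox5 UMI, against 64.1% and 57.5% of cancer cells. Igf2bp1, Igf2bp2 and Igf2bp3 were between 0.953 and 1.11 times their level in cancer cells, and Hmga2 was at 0.891 and 0.851 times. Lin28b, on few UMIs, was at 0.358 and 2.21 CPM. The class was mixed. Among 5 marker lists of other cell types its largest sum was that of 8 fibroblast markers, 1212 and 1308 CPM (led by Col3a1, none at 0), against 526 CPM in cancer cells of both libraries, and Ghr was at 206 and 212 CPM in fibroblasts. Its summed markers were also higher than in cancer cells for 7 immune genes (579 and 343 CPM, led by Cd52, none at 0), 5 C1q macrophage genes (394 and 224 CPM, led by C1qb, none at 0), 7 mural genes (299 and 297 CPM, led by Acta2 and by Rgs5, none at 0) and 7 endothelial genes (203 and 156 CPM, led by Cdh5, none at 0). In cancer cells these last 4 sums were 83.3 and 47.4, 39.4 and 23.6, 50.8 and 46.9, and 41.9 and 39.1 CPM. The part of such cells in the values of the class, that of Ghr included, was not tested. Nor was the part of depth, with which Ghr, Hmga1 and Rhox5 also varied within cancer cells.

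Around the let-7 axis, RNA of most machinery genes was counted in cancer cells. The level of mature let-7 was not measured and its activity was not tested. Of 10 further genes of let-7 processing and RNA binding, 9 had at least 10 CPM in both libraries, 0 of these 9 passed 1.5 times between ENZ and control (0.483% of all genes were higher and 0.920% lower), and the median log2 ratio was 0.19. The interval lay above 1 for 8 of the 9 and below 1 for 0, against 46.8% and 30.4% of all genes. Trim71, a let-7 target and stem cell RNA-binding protein gene, was at 24.99 and 24.8 CPM in cancer cells, at 8.22 and 8.59 CPM in all immune cells and at 2.07 and 2.05 CPM in those with under 3 keratin UMIs. Trim71 had the highest ratio to all immune cells of these 9 genes (3.04 and 2.88), and Tut7 (0.434 and 0.422), Ago2 (0.637 and 0.773) and Dicer1 (0.852 and 0.867) had ratios below 1 in both libraries. Dicer1, the ribonuclease that cuts precursor microRNAs, was at 25.5 and 32.6 CPM, Drosha, the nuclear ribonuclease, at 48.6 and 54.6 CPM, Xpo5 at 42.6 and 51.0 CPM, Dgcr8 at 19.4 and 22.5 CPM, and Ago2 at 120.5 and 141 CPM. The let-7 uridylating enzymes Tut4 and Tut7 were at 154 and 168 CPM and at 62.4 and 70.96 CPM, and Dis3l2, which degrades uridylated precursors, at 61.1 and 64.3 CPM. Of 18 known let-7 targets besides the members, 0 of 14 tested passed 1.5 times, where 0.483% of all genes were higher and 0.920% lower. Their median log2 ratio was 0.22, against 0.055 for all genes. The interval lay above 1 for 12 and below 1 for 0, against 46.8% and 30.4% of all genes. Among them Ccnd1, the cyclin D1 gene, was at 179 and 207 CPM, Cdk6 at 56.9 and 72.3 CPM and Nr6a1, a nuclear receptor gene, at 54.4 and 68.4 CPM.

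In the IGF axis, receptor genes were counted in all 3 classes. Igf1r, the type 1 receptor gene, was at 101 and 110 CPM in cancer cells, below its 195 and 177 CPM in immune cells and 161 and 205 CPM in fibroblasts. Igf2r, whose receptor clears IGF2, was at 128 and 142 CPM in cancer cells, 71.7 and 80.4 CPM in immune cells and 131 and 137 CPM in fibroblasts. Insr, the insulin receptor gene, was at 40.1 and 45.1 CPM in cancer cells, 29.4 and 41.5 CPM in immune cells and 52.5 and 75.8 CPM in fibroblasts. Several ligand and binding protein genes had a higher CPM in fibroblasts than in cancer cells. Igfbp6 and Igfbp3 were at 61.5 and 59.3 CPM and at 11.7 and 14.8 CPM in cancer cells, against 299.8 and 240 CPM and 91.7 and 170 CPM in fibroblasts. Igf1 was at 0.314 and 0.0973 CPM in cancer cells and at 147 and 114 CPM in fibroblasts. The binding protein genes Igfbp4 (905 and 636 CPM) and Igfbp7 (901 and 979 CPM) were also high in fibroblasts, against 2.29 and 1.47 CPM and 4.88 and 3.19 CPM in cancer cells. Of 12 genes of the list besides the members tested against fibroblasts, 8 were at least 4 times lower in cancer cells, where 6.47% of all genes were. Of these 8, 6 were under 10 CPM in the cancer cells of both libraries and so entered through fibroblasts alone, where they are high, and the other 2 were Igfbp3 and Igfbp6. Of 5 tested between ENZ and control, 0 passed 1.5 times, where 0.483% of the 8695 genes tested were higher and 0.920% lower. The interval lay above 1 for 4 of the 5 and below 1 for 0, against 46.8% and 30.4% of all genes. The median log2 ratio was 0.15.

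Downstream of Ghr, Socs3, an inhibitor of cytokine receptor signalling, had 198 CPM in cancer cells of the control and 98.9 CPM in those of the ENZ library. Its ratio was 0.499 (0.486 to 0.511), and it was the 1 of 6 further growth hormone axis genes tested that passed 1.5 times, where 0.920% of all genes were lower by that much and 0.483% higher. Jak2 was at 63.2 and 79.5 CPM, Stat5b at 27.0 and 30.1 CPM, Stat5a at 8.30 and 10.7 CPM, and the feedback inhibitor gene Socs2 at 29.3 and 27.8 CPM, with Socs1 at 21.4 and 19.2 CPM. The list had 3 genes with an interval above 1 and 3 below, where 46.8% and 30.4% of the 8695 genes tested had one, and a median log2 ratio of 0.040.

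Several other imprinted genes had, like H19, a higher CPM in fibroblasts than in cancer cells. The noncoding RNAs Meg3 (549 and 627 CPM) and Rian (118 and 116 CPM), with Ndn (33.6 and 21.3 CPM) and Sgce (30.4 and 19.5 CPM), were each under 1 CPM in cancer cells of both libraries. Of 10 imprinted genes tested besides the members, 5 were at least 4 times lower in cancer cells than in fibroblasts, as were 6.47% of the 9230 genes tested. All 5 were under 10 CPM in cancer cells and entered through fibroblasts alone, so the count follows from the filter and is a description. Cdkn1c, which encodes the cell cycle inhibitor p57, was counted in cancer cells at 38.1 and 26.9 CPM (ratio 0.706, 0.671 to 0.743), Peg3 at 16.7 and 13.2 CPM, Grb10, an adaptor of the insulin and IGF receptors, at 63.9 and 69.5 CPM, and Gnas, the G protein gene, at 1610 and 1523 CPM. Of 5 tested between ENZ and control, 0 passed 1.5 times, where 0.483% of the 8695 genes tested were higher and 0.920% lower. The interval lay above 1 for 2 of the 5 and below 1 for 3, against 46.8% and 30.4% of all genes. The median log2 ratio was -0.08.

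Among other high mobility group genes the ENZ to control ratio lay below that of Hmga1 and Hmga2. All 7 tested had an interval below 1, as did 30.4% of all genes tested. Of these 7, 0 passed 1.5 times, where 0.483% of all genes were higher and 0.920% lower. The median log2 ratio was -0.26, against 0.055 for all genes. Cells with at least 2 UMIs of Mki67 and Top2a were 1105 of 2941 in the control and 1219 of 3620 in the ENZ library, and their part in these ratios was not tested. Hmgb1 was at 1243 and 1160 CPM, Hmgb2, high in proliferating cells, at 642 and 521 CPM, Hmgb3 at 40.7 and 32.1 CPM, Hmgn1 at 224 and 199 CPM, Hmgn2 at 202 and 165 CPM, Hmgn3 at 85.7 and 71.8 CPM and Hmgn5 at 33.9 and 30.9 CPM. Of 18 other oncofetal genes, 5 were tested and 2 were at least 1.5 times lower in ENZ, where 0.920% of genes were: Ptn, a heparin-binding growth factor gene, at 156 and 94.6 CPM (ratio 0.607, 0.591 to 0.623), and Prtg, an embryonic immunoglobulin superfamily gene, at 44.4 and 26.9 CPM (0.606, 0.577 to 0.636). Tpbg, the 5T4 trophoblast glycoprotein gene, was at 29.4 and 32.4 CPM. Afp, the alpha-fetoprotein gene, was at 8.98 and 6.61 CPM in cancer cells, while Gpc3 (53.0 and 46.3 CPM) and Mdk (40.1 and 51.8 CPM) were counted in fibroblasts and were under 1 CPM in cancer cells.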

How the data were processed

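Gene expression was measured by droplet-based single-cell RNA-seq in 1 control and 1 ENZ-treated RM-1 tumor. The deposited files hold unnormalised UMI counts for each gene in each barcode, as the authors' pipeline wrote them. The file header names Cell Ranger 7.2.0, while the submitters' processing notes name Cell Ranger 2.1.1 and mm10. The annotation, the counting of intronic reads and the use of strand are not given in the sources used here, and intronic counting would raise genes with long introns such as Ghr. Of the 32285 gene identifiers, 32235 were found in GENCODE M21, used for positions.

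The genes and lists were chosen with earlier results of these data known. UMIs were added up over the cells of each class and scaled to CPM. Exact 95% intervals were taken from the Poisson distribution for levels, from the conditional binomial for ratios, and by Clopper-Pearson for shares (Python 3.11.15, numpy 2.4.6, scipy 1.17.1, pandas 2.3.3). Ratios were counted for genes of at least 10 CPM in either class, and 4 times and 1.5 times were the folds used. The minimum of 1000 UMIs for immune cells and fibroblasts was set for this work, at most 20% mitochondrial UMIs held for all classes, and no doublet caller was run. A count of 0 was given a limit of 3 counts. Named besides the members were list genes, the 3 genes most correlated with each member and the 10 genes ranked first by ratio. The interval procedure and the thinning were checked on simulated data. Alternatives covered the UMI, mitochondrial, keratin and Ptprc limits, the largest barcodes, per-cell means, free RNA, scaling and the filter. A few genes of the lists are included in the counts and are not reported here singly.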

Additional observations from a re-analysis of the deposited data

Results flagged for a closer look

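For 3 members the ENZ to control ratio lay on opposite sides of 1 in cancer cells and in all immune cells, with intervals that excluded 1 in both, and the difference itself was not tested. Hmga1 had ratios of 1.19 in cancer cells and 0.850 in immune cells, Igf2bp1 of 1.08 and 0.828, and Igf2bp2 of 1.09 and 0.876. In the same immune cells the keratins Krt8 and Krt18 had ratios of 0.750 and 0.638, and their part in the result was not tested. With under 3 keratin UMIs the immune ratios were 0.961 (0.822 to 1.12) for Hmga1, 0.900 (0.683 to 1.18) for Igf2bp1 and 0.924 (0.805 to 1.06) for Igf2bp2, all spanning 1.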

How the results depend on the processing

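No paired analysis was possible because there is only 1 control and 1 ENZ library. The count of members at least 4 times higher in cancer cells than in immune cells, 0 as reported, was 7 with under 3 keratin UMIs in the other classes, 7 without the 5% of barcodes with the most UMIs, 7 when CPM was averaged over cells, and 7 with under 3 keratin UMIs and at least 8000 UMIs together, an alternative chosen after seeing the data. Against fibroblasts these alternatives gave 4, 1, 1 and 4, and no filter on low values gave 1. Between ENZ and control, no filter gave 2 members past 1.5 times, which adds low genes by construction, and median-of-ratios scaling gave a median log2 ratio of 0.060 for the members in place of 0.11, with 0.0057 for all genes. The sign of the log2 ratio of cancer to immune cells turned for Lin28b, to 0.59 in the control with both limits, and in the ENZ library to 0.15 with under 3 keratin UMIs and 0.12 without the largest barcodes. Of the alternative values for single ratios, 483 stayed within the counting interval, 151 moved beyond it and 3, those of Lin28b, reversed, which was counted only for ratios whose interval as reported excluded 1. Ratios whose interval spanned 1 also changed sign: Ghr in cancer cells over ENZ fibroblasts ran from a log2 ratio of -0.16 to 0.51, Igf2bp3 over ENZ fibroblasts from -0.09 to 2.03, and H19 in ENZ over control cancer cells from -0.34 to 0.48. Depth limits Lin28b, H19 and Igf2, and the fibroblasts rest on 83 and 92 barcodes.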
